A study of Mus musculus with 4 samples.

Results

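Ifnb1 encodes interferon beta, and the interferon regulatory factors (IRFs) are transcription factors that control it and respond to it. The 9 genes described here are Ifnb1, Irf1, Irf2, Irf3, Irf4, Irf5, Irf7, Irf8 and Irf9, of 19938 genes with a probe of a single gene symbol on the arrays. They were taken by name, and where a gene had several probes the one brightest on average over the 4 arrays was used.

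Macrophages were grown from the bone marrow of female BalbC (BALB/c) mice and differentiated for 7 days in medium conditioned by L929 cells, which supply macrophage colony stimulating factor. One condition is labelled Control, with no agent named and no vehicle given. The other 3 conditions all received LPS at 10 ng/ml, a bacterial ligand of the receptor TLR4. In 1 of them zVAD, a caspase inhibitor, was added at 50 µM, and in another zVAD was joined by Nec-1, an inhibitor of the RIPK1 kinase, at 30 µM. The design asks which inflammatory changes depend on RIPK1 kinase activity. There was 1 array per condition, and the differences given here therefore carry neither a p-value nor a check between replicates. Neither the number of mice behind an array, their age nor the treatment times are given in the sources used here. With LPS in every inhibitor array and none of zVAD or Nec-1 alone, an effect of an inhibitor itself and one on the LPS response cannot be told apart.

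Values are log2 signals, so a difference of 1 is 2-fold. "Higher" and "lower" in a count mean at least 2-fold between single arrays. A signal below log2 6.47, the median of all values, was not separated from background, and a fold measured against such a signal is a bound counted from that level. This filter level was passed on at least 1 array by 12203 genes, and by 9 of the 9 described here. Array medians lay between log2 6.41 and 6.52, and the highest signals between 14.55 and 14.63. All 11 measured macrophage markers were above the filter level on every array, with mean log2 signals of 12.35 to 12.67. In these bulk samples, fewer cells of a type and less RNA per cell cannot be told apart.

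As background, TLR4 signals through the adaptors MyD88 and TRIF. TRIF leads to the kinases TBK1 and IKK epsilon, which phosphorylate IRF3, and phosphorylated IRF3 binds the Ifnb1 enhancer together with NF-kB and AP-1 proteins. Secreted interferon beta then acts through its receptor on the complex ISGF3, of which IRF9 is a subunit and which switches on interferon stimulated genes, Irf7 among them. Arrays measure RNA, so the phosphorylation of any IRF was not measured.

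The Ifnb1 promoter is shown because the proteins of this family bind there, and stretches of the Irf1 and Irf2 promoters because they hold matches to elements through which IRF genes are themselves controlled. All 3 are RefSeq sequences of build GRCm38.p6, read on the gene's strand and lying before the annotated transcription start. Ifnb1 is at chr4:88522865-88522964 on the minus strand, Irf1 at chr11:53769894-53769953 and Irf2 at chr8:46739495-46739554, both on the plus strand. In Ifnb1 the capitals mark the short IRF core AANNGAAA and a kB pattern (GGG and CC with 5 bases between them). The stretch GGACCATCCC matches the kB pattern on the opposite strand. In Irf1 the capitals mark TTCNNNGAA, the gamma-activated site bound by STAT proteins, and in Irf2 the short IRF core.
Ifnb1: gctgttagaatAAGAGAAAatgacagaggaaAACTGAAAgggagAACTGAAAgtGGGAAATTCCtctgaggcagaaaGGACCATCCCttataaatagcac
Irf1: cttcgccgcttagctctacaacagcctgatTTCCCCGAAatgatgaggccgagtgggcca
Irf2: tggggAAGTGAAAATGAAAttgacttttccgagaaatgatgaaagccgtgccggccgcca

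The 250 bases before each start were searched on both strands, in 12 annotated windows of the 9 genes and in 32851 windows over all genes. The short IRF core had 3 matches in the Ifnb1 window, the nearest of them ending 2 bases before a kB match, AACTGAAA at 126 to 119 bases and GGGAAATTCC at 116 to 107 bases before the start. Of all windows, 21.3% held the short core at least once and 0.849% at least 3 times. Irf2 held it 2 times, in overlapping matches, and the other 7 genes had none. The longer ISRE core, which is GAAA repeated after 2 further bases, matched in Irf2 alone, against 2.98% of all windows. The gamma-activated site matched in Irf1, Irf2 and Irf8, against 7.02%. The kB pattern, which is loose and can match both strands of the same bases, was present for 9 of the 9 genes in 9 of the 12 windows, and in 45.8% of all windows. The AP-1 site TGANTCA matched in 0 of the 12 windows, against 6.75%. A match is a run of letters and not evidence of binding. The lack of a match is not evidence against binding, as a bound site can differ from the letters searched.

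Ifnb1 was measured at log2 5.42 in control and 6.48 after LPS, against 11.62 with LPS/zVAD and 7.51 once Nec-1 was present as well. A single array, that with LPS/zVAD, was far above the rest. The control signal was below the filter level and the LPS signal lay at it, so the LPS ratio of 2.09-fold as deposited came to 1.01-fold when counted from that level. With zVAD added the signal was 35.3-fold higher, rank 1 of 12203 genes, and with Nec-1 added to that it was 17.3-fold lower, again the most extreme ratio. The part of the zVAD difference that was gone with Nec-1 was 80.0% on the log2 scale. The same share had a median of 86.2% over the 396 genes higher with zVAD (quartiles 75.2% and 97.8%), so the share for Ifnb1 lay between the lower quartile and that median. The LPS/zVAD array enters both differences and the choice of these genes. A deviation of that array alone would therefore also look like a loss with Nec-1. The remainder left Ifnb1 at 2.04-fold above LPS alone, rank 9 of 12203 from the top. With each array centred on its median that log2 ratio was 0.96, under the 2-fold threshold.

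**Figure D1:**
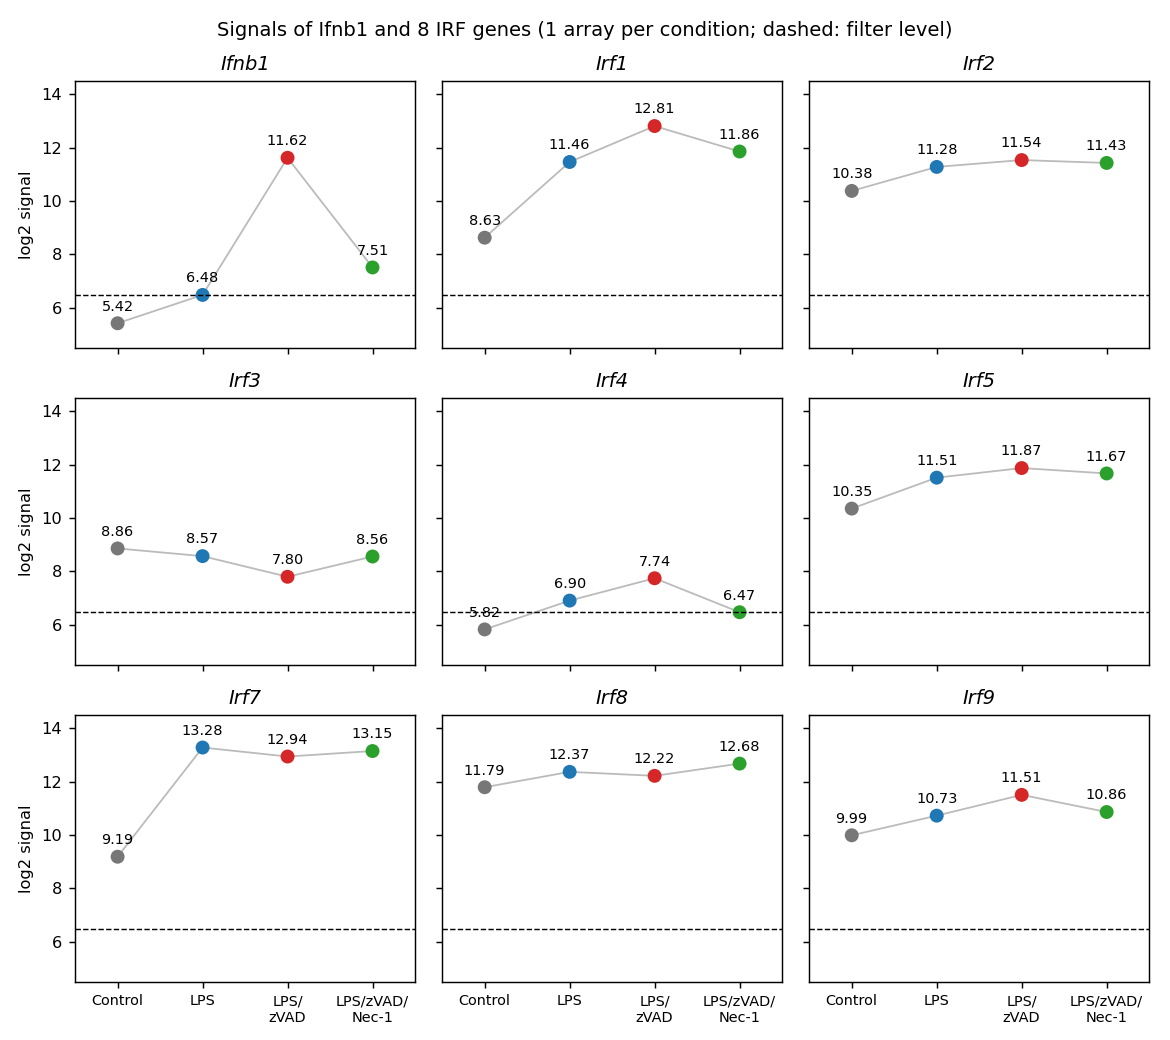
Log2 signal (vertical axis) of each of the 9 genes on the 4 arrays (horizontal axis), 1 point per array, with the filter level of log2 6.47 dashed. Grey lines join the arrays for the eye and are no time course. Ifnb1 reaches 11.62 with LPS/zVAD and 7.51 or less elsewhere, while Irf7 sits between 12.94 and 13.28 on every array with LPS.

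Irf3 encodes the factor that links TLR4 to Ifnb1, and its order across arrays was the reverse of that of Ifnb1, although its LPS and LPS/zVAD/Nec-1 signals differed by 0.01 and changed places after quantile normalization or cyclic loess. Its signals were log2 8.86 in control, 8.57 after LPS, 7.80 after LPS/zVAD and 8.56 with Nec-1 added. The LPS/zVAD array was the lowest and the other 3 lay close together. Irf3 was 1.71-fold lower with zVAD and 1.69-fold higher when Nec-1 was added, both under 2-fold. Across the 4 arrays, which both genes share, its Pearson r with Ifnb1 was -0.99. That value rests mainly on the LPS/zVAD array, where Ifnb1 was far above the rest, and how many genes have such an r was not counted. Of all genes, 12.5% had a larger absolute zVAD ratio than Irf3.

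Irf7 encodes the factor that amplifies the response once interferon has been made. It was measured at log2 9.19 in control, 13.28 after LPS, 12.94 after LPS/zVAD and 13.15 with Nec-1 added. The 3 arrays with LPS stood together and the control array far below. LPS gave a 17.1-fold higher signal, rank 83 of 12203. The array with the highest Ifnb1 signal had the lowest Irf7 signal of the 3, by 1.26-fold against LPS alone. Of all filtered genes, 42.6% had a larger absolute zVAD ratio than Irf7. Irf5, whose protein works downstream of MyD88 on inflammatory cytokine genes, was at log2 10.35, 11.51, 11.87 and 11.67 in the same order. It was 2.23-fold higher with LPS, and the 3 arrays with LPS lay within 1.28-fold.

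Irf1 and Irf2 encode factors that bind the same DNA elements, IRF1 mainly as an activator and IRF2 often as its antagonist. Irf1 was measured at log2 8.63 in control, 11.46 after LPS, 12.81 after LPS/zVAD and 11.86 with Nec-1 added. Each of the 3 arrays with LPS was above control, and LPS/zVAD was the highest. Irf1 was 7.15-fold higher with LPS (rank 192 of 12203), a further 2.54-fold higher with zVAD (rank 216), and 1.94-fold lower with Nec-1. Of its log2 difference with zVAD, 70.9% was gone with Nec-1, below the lower quartile given above. A second Irf1 probe had far smaller differences, with log2 signals of 7.07, 7.21, 7.78 and 7.67. With the mean of both probes the zVAD difference was 0.96 (log2), under the 2-fold threshold. Irf2 was at log2 10.38, 11.28, 11.54 and 11.43. It was 1.87-fold higher with LPS, and zVAD and Nec-1 then moved it by 1.20-fold and 1.08-fold.

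Irf9 encodes the DNA-binding subunit of ISGF3. Its signals were log2 9.99 in control, 10.73 after LPS, 11.51 after LPS/zVAD and 10.86 with Nec-1 added. It was 1.67-fold higher with LPS and 1.72-fold higher again with zVAD, so the zVAD ratio was as large as the LPS ratio, although neither reached 2-fold. With Nec-1 it was 1.56-fold lower and stood 1.10-fold from LPS alone.

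Irf4 and Irf8 are closely related factors that act with the lineage factor PU.1, Irf8 in macrophage and dendritic cell development and Irf4 in alternative activation and B cells. Irf4 was measured at log2 5.82 in control, 6.90 after LPS, 7.74 after LPS/zVAD and 6.47 with Nec-1 added. All 4 signals were low, 2 of them under the filter level. The LPS ratio of 2.12-fold came to 1.35-fold counted from that level. zVAD gave a 1.79-fold higher signal. Irf4 was then at least 2.41-fold lower with Nec-1 and ended at a log2 ratio of -0.44 to its LPS signal, the lowest of the 9. Irf8 was at log2 11.79, 12.37, 12.22 and 12.68 and was the steadiest of the 9, with 0.89 between its highest and lowest signals. Its highest signal was on the Nec-1 array, which held for no other member.

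The number of members past 2-fold was counted in each comparison and set beside the share of all genes. With LPS, 5 of the 9 were higher and 0 lower (Ifnb1, Irf1, Irf4, Irf5 and Irf7), where 8.24% of all filtered genes were higher and 7.2% lower. Counted from the filter level, 3 remained higher, Irf1, Irf5 and Irf7. The median log2 ratio of the 9 was 1.06, and that of all filtered genes was -0.12. With zVAD added to LPS, 2 were higher and 0 lower (Ifnb1 and Irf1), against 3.25% and 3.59% of all genes. The split of called genes depends on scaling here: 47.5% of them were higher as deposited, 57.8% after quantile normalization and 59.7% after cyclic loess. The median of the 9 was 0.36, and of all genes -0.05. With Nec-1 added to LPS/zVAD, 2 were lower and 0 higher (Ifnb1 and Irf4), against 3.32% and 1.14%. The medians were -0.20 for the 9 and 0.07 for all genes. Between LPS/zVAD/Nec-1 and LPS, 1 was higher (Ifnb1, with 0 after centring) and 0 lower, against 0.0738% and 0.541%, with medians of 0.15 and -0.02. The zVAD and Nec-1 comparisons share the LPS/zVAD array, so a deviation of that array alone would give opposite ratios in both. All 9 members had ratios of opposite sign in these comparisons, some of them small, as for Irf2 at 0.26 and -0.11. The share of all genes with opposite signs was not counted, so the 9 cannot be set against it.

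**Figure D2:**
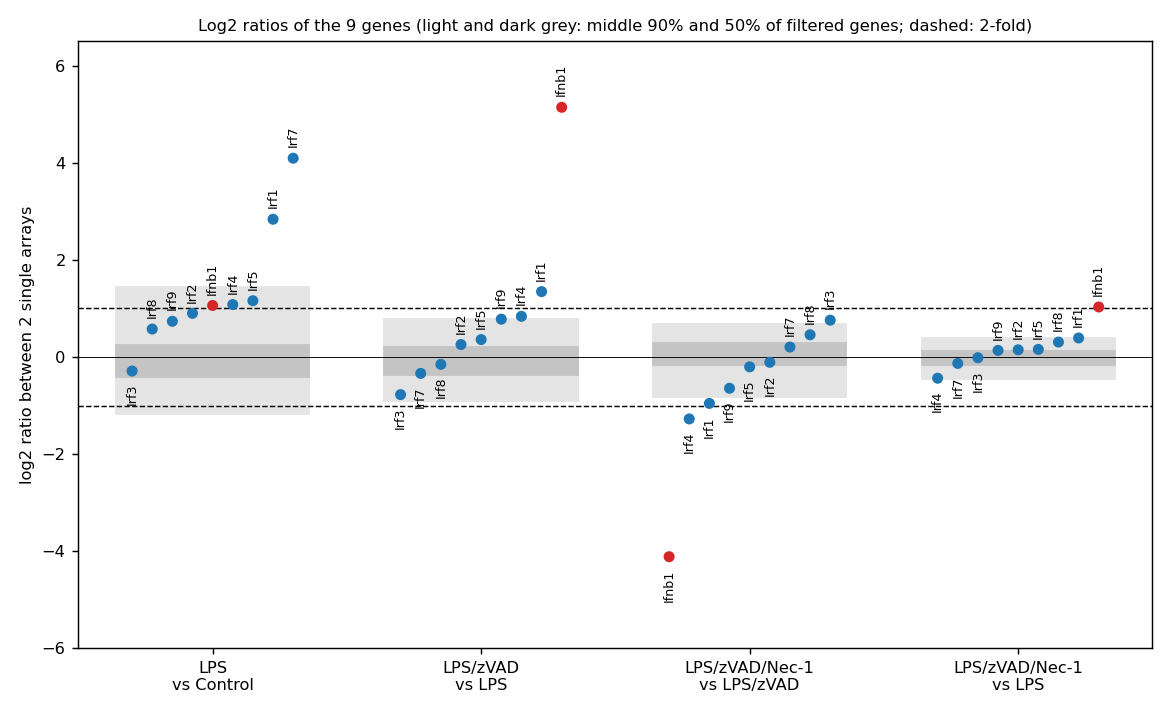
Log2 ratios (vertical axis) of the 9 genes in 4 comparisons of single arrays (horizontal axis), Ifnb1 in red and the IRFs in blue. Grey bands hold the middle 90% and 50% of the 12203 filtered genes and dashed lines mark 2-fold. Ifnb1 stands at 5.14 with zVAD and -4.11 with Nec-1, far outside the bands, and Irf7 at 4.09 with LPS.

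Genes of sensors, adaptors and kinases upstream of Ifnb1 were listed, including nucleic acid sensors outside the TLR4 route described above. Of 25 measured sensors, adaptors and kinases, 12 were higher with LPS and 0 lower (median log2 ratio 0.85). Over all filtered genes, 8.24% were higher with LPS and 7.2% lower. The 12 included the nucleic acid sensor genes Zbp1 (log2 8.50 and 12.45), Ifih1 (8.98 and 12.87), Ddx58 (10.14 and 12.91) and Dhx58 (10.05 and 12.70), and the kinase gene Tbk1 (9.16 and 10.60). With zVAD, 2 of the 25 were higher, 2 lower and 21 under 2-fold, around a median of -0.12, where 3.25% of all genes were higher and 3.59% lower. The DNA sensor gene Cgas was higher, from log2 7.42 with LPS by a log2 ratio of 1.58, as was Ticam1, the gene of TRIF, at 9.43 and 10.76. Ikbke, the gene of IKK epsilon, was lower, at 12.40 and 11.07, and so was the adaptor gene Mavs, at 9.85 and 8.69. Tbk1 was at 10.60 and 10.54, and the receptor gene Tlr4 at 9.51 and 10.15. With Nec-1, Cgas was at 7.33, Ticam1 at 9.75 and Ikbke at 12.30, each more than 2-fold from LPS/zVAD and back towards the LPS signal, and Mavs was at 9.60, under 2-fold. Cyclic loess and the other scalings gave 2 or 3 of the 25 higher and 2 or 3 lower with zVAD, and 1 to 3 lower with Nec-1, where Ticam1 lay at the threshold with a log2 ratio of -1.01.

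Of 7 measured genes whose products join IRFs on the Ifnb1 enhancer or open it, Jun, a subunit of AP-1, was the single one higher with zVAD. It was at log2 11.44 in control, 10.57 after LPS, 11.93 after LPS/zVAD and 10.75 with Nec-1 added. Rela, the activating subunit of NF-kB, was at 10.24, 10.86, 11.19 and 10.61, under 2-fold throughout. Kat2b, a histone acetyltransferase gene, was higher with LPS, at 7.73 and 9.46. Of 14 IRF cofactors and partners, 4 were higher with LPS, namely Batf, Trim21, Cebpb and Etv6, with log2 ratios of 3.18, 2.82, 2.30 and 1.47, and 0 lower. Of the same 14, 0 passed 2-fold with zVAD or with Nec-1. Among all filtered genes, 8.24% were higher and 7.2% lower with LPS. The shares were 3.25% and 3.59% with zVAD, and 1.14% and 3.32% with Nec-1. The counts of 0 of 14 therefore lie near the shares of all genes.

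Most other interferon genes had signals not separated from background. Of 15 other measured interferon genes, 0 were higher or lower by 2-fold in any of the 4 comparisons, and 10 of them were below the filter level on every array. Over all filtered genes, 8.24% were higher and 7.2% lower with LPS, and 3.25% and 3.59% with zVAD. The shares were 1.14% and 3.32% with Nec-1 added to LPS/zVAD, and 0.0738% and 0.541% between LPS/zVAD/Nec-1 and LPS. For the 5 interferon genes past the filter, counts of 0 lie near these shares. Ifna2 had the largest zVAD ratio of the 15, at log2 6.08 with LPS and 7.04 with LPS/zVAD. Its LPS signal was under the filter level, and counted from that level the ratio was 1.48-fold. Irf7, whose product drives the interferon alpha genes, was at 13.28 and 12.94 on these arrays.

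After Ifnb1 in the pathway, the receptor genes Ifnar1 and Ifnar2 stood at log2 12.31 and 12.87 with LPS and at 11.55 and 12.33 with LPS/zVAD, both lower but under 2-fold. Of 12 measured genes of the receptor and its signalling, 6 were higher with LPS and 0 lower (median 1.01), among them the feedback gene Usp18 (log2 10.18 and 13.84), Jak2 (8.89 and 12.23), Stat2 (9.53 and 12.46) and Socs1 (7.70 and 10.17). Of all genes, 8.24% were higher with LPS and 7.2% lower. With zVAD 1 of the 12 was lower and 1 higher, where 3.59% of all genes were lower and 3.25% higher. Tyk2, the gene of a kinase bound to the interferon receptor, was at 10.84 and 9.36, and Ptpn2, the gene of a phosphatase that removes JAK and STAT phosphorylation, at 9.82 and 10.84. Under cyclic loess or another scaling Ptpn2 passed or missed 2-fold, its count being 0 or 1. With Nec-1, Tyk2 was at 10.67 and Ptpn2 at 9.78, again more than 2-fold from LPS/zVAD.

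Known interferon targets differed between control and LPS far more than between LPS and LPS/zVAD. All 22 measured targets of ISGF3 and IRF3 were higher with LPS, against 8.24% of all genes, at a median log2 ratio of 4.55. The chemokine genes Ccl5 and Cxcl10 had log2 ratios of 7.20 and 7.08, and Ifit2, which encodes an antiviral RNA-binding protein, 6.10. Gbp3, a guanylate binding protein gene below the filter level in control, was at least 88.7-fold higher. With zVAD, 0 of the 22 were higher and 0 lower, and the median was 0.16. Of all genes 3.25% were higher and 3.59% lower, so the counts of 0 lie near the share of all genes. Mx2, at log2 11.65 and 12.36, had the largest difference. Mx1, an antiviral GTPase gene, was at 12.81 and 12.66, and Cxcl10 at 13.86 and 14.03. Several of these signals lay close to the top of the array range, and whether their ratios are compressed there was not tested. With Nec-1, 0 of 22 passed 2-fold, against 1.14% of all genes higher and 3.32% lower, and the median was -0.15.

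Of 16 measured targets of IRF1 and interferon gamma, 14 were higher with LPS and 0 lower (median 2.93). Of all genes, 8.24% were higher and 7.2% lower. The largest of these LPS ratios among the 16 were those of Gbp5, Iigp1, Nos2 and Il12b. With zVAD, the array on which Irf1 was highest, 0 were higher and 1 lower, against 3.25% and 3.59% of all genes. The lower gene was Il12b, a subunit of interleukin 12, at log2 12.17 with LPS, 9.62 with LPS/zVAD and 12.00 with Nec-1. The median log2 ratio of the 16 with zVAD was -0.07.

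**Figure D3:**
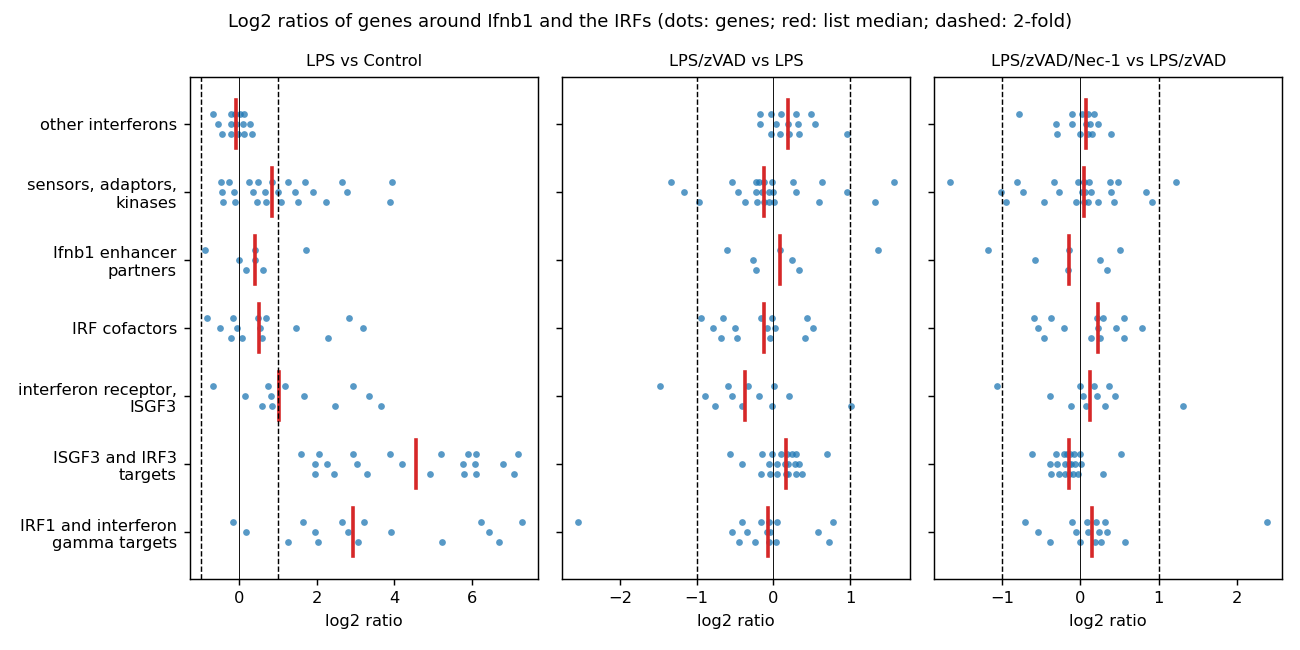
Log2 ratios (horizontal axis) of the genes of 7 lists around Ifnb1 and the IRFs (vertical axis) in 3 comparisons, with 1 dot per gene, red bars for list medians and dashed lines at 2-fold. The target lists reach medians of 4.55 and 2.93 with LPS, and 0.16 and -0.07 with zVAD.

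Likeness to Ifnb1 and to Irf1 was measured as the Euclidean distance between 4-array log2 profiles, each centred on its own mean, which depends on the size of a difference as well as its shape. The 5 nearest to Ifnb1 of the filtered genes were Bmp2 at 0.71, Hamp at 0.71, Prrg4 at 0.93, Htr2a at 1.25 and Gprc5a at 1.31, with Pearson r of 0.99 to 1.00 over the 4 arrays. That r follows from choosing the genes by distance on the same arrays, and it rests mainly on the LPS/zVAD array. Bmp2, a growth factor gene, was at log2 5.32 in control, 5.73 after LPS, 10.65 after LPS/zVAD and 6.57 with Nec-1 added. Hamp, the hepcidin gene, was at 4.72, 6.01, 10.21 and 6.52. Both were near or below the filter level except with LPS/zVAD, so these distances rest in part on signals not separated from background. The 5 nearest to Irf1 were Fabp3 at 0.24, Tmem171 at 0.24, Cd86 at 0.28, Ccl4 at 0.29 and Tiparp at 0.29. Cd86, a costimulatory ligand gene, was at log2 8.15, 11.37, 12.60 and 11.67. Quantile normalization or cyclic loess kept at least 4 of the 5 genes in each set.

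**Figure D4:**
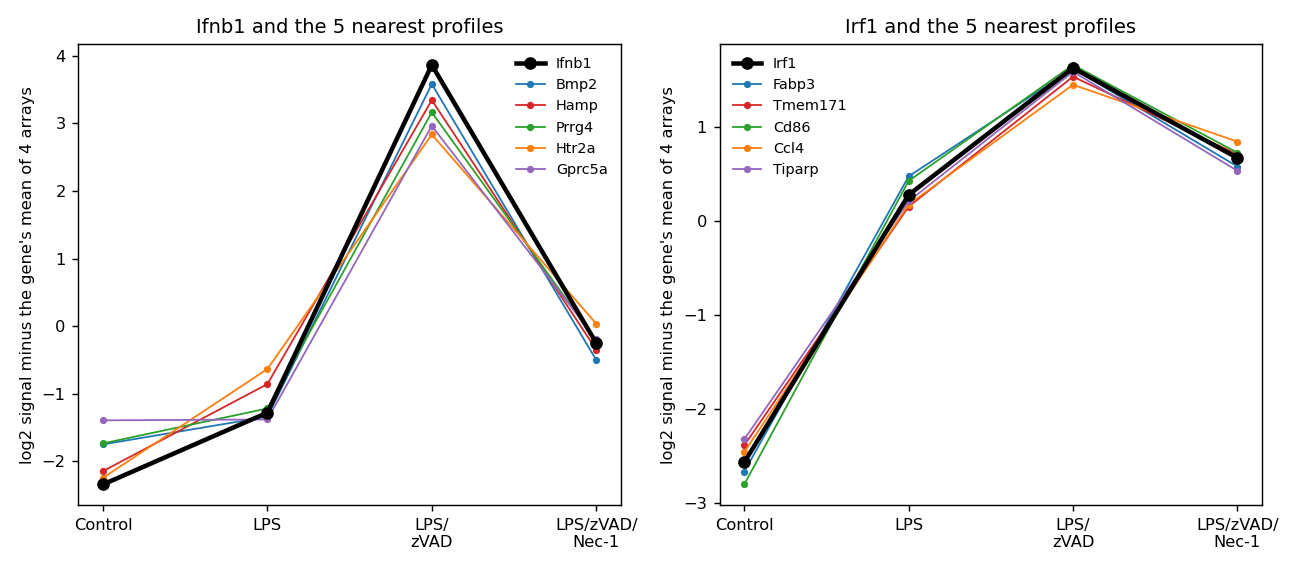
Log2 signal minus the gene's own mean of the 4 arrays (vertical axis) on each array (horizontal axis) for Ifnb1 (left, black) and Irf1 (right, black) with their 5 nearest genes. The vertical scales differ. Ifnb1 and its neighbours peak with LPS/zVAD alone, while Irf1 and its neighbours are already raised with LPS.

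Among the 9 themselves the closest pair was Irf2 and Irf5, at a distance of 0.27, and Irf2 lay 0.43 from Irf9. By distance Irf1 was the IRF nearest to Ifnb1, at 2.89, and Irf3 the farthest, at 5.48. By Pearson r over the 4 arrays, which leaves out the size of the differences, the order was another, with 0.93 for Irf9, 0.90 for Irf4 and 0.80 for Irf1. No probe's level was set against another's in these distances.

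Markers of cells that use these factors were measured beside them. Of 12 dendritic cell markers, 3 were higher with LPS (Ccr7, Fscn1 and Ccr9), of which Ccr9 came to 1.29-fold counted from the filter level. With zVAD 0 were higher and 1 lower (Fscn1), and 0 passed 2-fold with Nec-1. Their mean log2 signal was 6.53 in control and 7.22, 7.21 and 7.10 on the arrays with LPS. Of the 12, 7 reached the filter level on at least 1 array (Ccr7, Fscn1, Ccr9, Tcf4, Ly6d, Siglech and Zbtb46), and Flt3, Clec9a, Xcr1, Cd209a and Clec10a were below it on all 4. Tcf4, the gene of a factor of plasmacytoid dendritic cells, was at log2 9.97, 10.75, 11.50 and 10.91 in the order of the arrays above. It was highest with LPS/zVAD and under 2-fold in each comparison. Its log2 ratio with zVAD was 0.75, where Siglech had -0.06 and Ly6d 0.06. Ccr9 was 1.29-fold lower with zVAD, counted from the filter level. Of 11 B cell and plasma cell markers, 1 was higher with LPS (Prdm1) and 0 passed 2-fold with zVAD or Nec-1. Their mean was 6.89, 6.78 and 6.71 on the arrays with LPS, and lower in control. Of the 11, 4 reached the filter level, namely Prdm1, Xbp1, Sdc1 and Cd79b, the last at log2 8.82, 8.33, 7.73 and 8.01. The other 7, which include Ms4a1, Cd79a, Pax5 and Ebf1, were below it throughout. T and NK cell markers had 0 of 11 past 2-fold in any comparison, at means of 5.39 to 5.62. Of 12 neutrophil markers, 3 were higher with LPS (Lcn2, S100a9 and Ly6g) and 2 lower with zVAD (Lcn2 and Mmp8), at a mean of 8.23 in control and 8.96, 8.53 and 8.56 with LPS; other scalings gave 0 to 2 of them lower with zVAD, and 0 or 1 dendritic cell marker. Over all genes, 8.24% were higher with LPS, and 3.25% were higher and 3.59% lower with zVAD. The part of other cell types in the signals of Irf4 and Irf8 was not tested.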

How the data were processed

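The deposited table holds gene-level log2 signals of 4 Affymetrix arrays, which the authors produced in Expression Console (named in the submitters' processing notes). That the scale is log2 was inferred from the range of the deposited values. How background and array differences were handled, and the build, is not given in the sources used here. An unknown normalization can shift every ratio, so 3 other scalings were tried.

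Of 35556 probes, 21789 had 1 gene symbol in the platform annotation, 1621 had several and 12146 had none. Of the resulting 19938 genes, 7735 were under the signal filter. Each comparison subtracts the log2 signals of one array from those of another. Having no replicates, it was not tested, and 2-fold is a rule of size. Samples were grouped by title.

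The members and gene lists were chosen with earlier results of these data known. Genes named are the members, their 5 nearest genes (for Ifnb1 and Irf1), up to 4 genes past 2-fold per list and comparison, and fixed key genes. Some listed genes were not analysed here. The uncalled markers named, and Mx2, Ifna2, Rela and Ptpn2 were named after their values were seen. The short IRF core was added after the sequences were read. Promoters came from RefSeq (GRCm38.p6), matched by symbol for 9 of 9 genes. Alternatives covered scaling, probe choice, threshold and filter. The calling step was tested on simulated data. Tools were Python 3.11.15, pandas 2.3.3, R 4.3.3 and limma 3.58.1.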

Additional observations from a re-analysis of the deposited data

How the results depend on the processing

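Each of the 36 member ratios was recomputed under 3 scalings and with the mean of all probes, which gave 144 values. Of these, 141 kept their side of the 2-fold threshold and 0 called ratios changed direction. Irf1 alone had a second probe, so for the other members the mean of all probes repeated the reported ratio and could not move. With centred arrays the ratio of Ifnb1 between LPS/zVAD/Nec-1 and LPS was 0.96, so 0 members were called there, and Irf2 reached 1.00 with LPS. With the mean of all probes Irf1 fell under the threshold with zVAD, which left 1 member called. Irf3 between LPS/zVAD/Nec-1 and LPS, at -0.01 as reported, was 0.08 after quantile normalization and 0.02 after cyclic loess. For LPS the median over all genes went from -0.12 to -0.01 with centring.

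At a 1.5-fold threshold 3861, 2578, 1891 and 426 genes were called in the order LPS, zVAD, Nec-1 against LPS/zVAD, and Nec-1 against LPS, compared with 1884, 834, 544 and 75 as reported, as well as 5 members for zVAD and 5 for Nec-1 against LPS/zVAD. At 3-fold the counts were 814, 221, 125 and 22 genes, and 2, 1, 1 and 0 members. Counting from the filter level, chosen after seeing the data, left 3 members called with LPS. The other filters and scalings kept every gene count within 1.5 times. Precision is limited by having 4 arrays in all.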
